A study of Mus musculus with 2 samples.

Results

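The monocyte-like Chil3 and Vcan cells were 404 of the 10075 cells analysed from tumours of WT and Siah2-/- mice, 142 from the WT library and 262 from the Siah2-/- library. They were chosen by their own measured values, in steps. A cell first had to hold at least 1 UMI (1 counted RNA molecule) of Csf1r, the receptor for macrophage colony-stimulating factor, and none of Cd3d, Cd3e, Cd3g, Ncr1, Flt3 or Cd209a, which mark T cells, NK cells and dendritic cells. This gate left 2954 cells. The mean normalised value of each of 6 sets of 4 genes was then turned into a z-score over the gated cells, and a cell was taken when its highest z-score was that of Hp, Chil3, Ifitm6 and Vcan. Of the other sets, 4 are described here and were named by their leading genes (Mgl2, Folr2, an interferon set with Rsad2 and Ifit2, and a cycling set with Mki67 and Cdk1).

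Monocytes are made in bone marrow and reach tumours through the blood. Classical monocytes carry Ly6C and the chemokine receptor Ccr2 and can mature in tissue into macrophages, which gain complement C1q and lose the monocyte genes. Nonclassical monocytes patrol the vessel wall, depend on the nuclear receptor Nr4a1, and carry little Ly6C. Of the 4 genes that chose the cells, Hp encodes haptoglobin, the scavenger of free haemoglobin, Chil3 a secreted chitinase-like protein, Ifitm6 a member of the interferon-induced transmembrane family and Vcan the matrix proteoglycan versican.

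The hosts were male C57BL/6 mice, 8 weeks old, either WT or Siah2-/-. Siah2 is a ubiquitin ligase that acts in the response to low oxygen, and it was deleted throughout the host, whereas the engrafted YUMMER1.7 mouse melanoma cells kept their own genotype. Tumours were taken on day 11 and pooled by genotype, live CD45+ cells were sorted with some CD45- cells mixed back in, and each pool gave 1 library of 3' end counts on 1 sequencing lane. Genotype therefore cannot be told apart from pool, library or lane, no test between genotypes was possible, and the 95% intervals given here cover counting error only.

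Members held a median of 7580 UMIs and 2183.5 genes in the WT library and 6494.5 UMIs and 1950 genes in the Siah2-/- library, below the medians of all gated cells (10223.5 and 8301.5 UMIs). The shallowest cell analysed held 6670 UMIs in the WT library and 4896 in the Siah2-/- library. Mitochondrial genes took a median of 1.37% and 1.32% of the members' UMIs. The libraries shared 34 barcodes among the cells analysed and 0 among the members. Siah2 itself gave 26 UMIs in the WT members (20.8 CPM, the gene's count scaled to 1000000 UMIs summed over the members) and 35 UMIs in the Siah2-/- members (19.2 CPM). A 3' end count need not lie in the deleted part of the gene, so it does not check the genotype, and the second library is meant throughout as the library labelled Siah2-/-.

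The members made up a larger share of the gated cells in the Siah2-/- library. They were 142 of 1664 gated cells in the WT library (8.53%, exact binomial interval 7.24 to 9.98%) and 262 of 1290 in the Siah2-/- library (20.3%, 18.1 to 22.6%), a log2 ratio of 1.25 (0.95 to 1.56). Of all cells analysed they were 3.15% and 4.71%, a log2 ratio of 0.58 (0.28 to 0.89). The Folr2 set went from 16.3% to 0.930%, the cycling set from 13.2% to 5.19%, the Mgl2 set from 37.7% to 25.3%, and the interferon set from 18.8% to 15.2%. Because the 6 shares sum to the whole, a gain in one is a loss in others.

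The size of this difference depended on which barcodes were counted. When every barcode of at least 1000 UMIs entered, members were 440 of 2734 gated barcodes in the WT library (16.1%) and 321 of 1707 in the Siah2-/- library (18.8%), a log2 ratio of 0.22 (0.01 to 0.44). When the WT minimum of 6670 UMIs was applied to both libraries, the ratio was 0.39 (0.05 to 0.72), and when every cell was thinned to 4896 UMIs it was 0.94 (0.66 to 1.23). The ratio stayed above 0 in each of the 10 alternatives run, with a range from 0.22 to 1.51. Among the barcodes of at least 1000 UMIs outside the cells analysed, 331 of 1070 gated barcodes in the WT library (30.9%) met the rule. In the Siah2-/- library 105 of 417 did (25.2%), so more such barcodes lay outside in the WT library. By the paper's counts of called cells, most barcodes outside had not been called as cells before the authors' filters. The gate itself also kept unequal parts of the Csf1r-positive cells, 62.4% of 2665 in the WT library and 41.7% of 3091 in the Siah2-/- library. Cd3d UMIs, which closed the gate, were found in 22.6% and 36.2% of them.

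**Figure D1:**
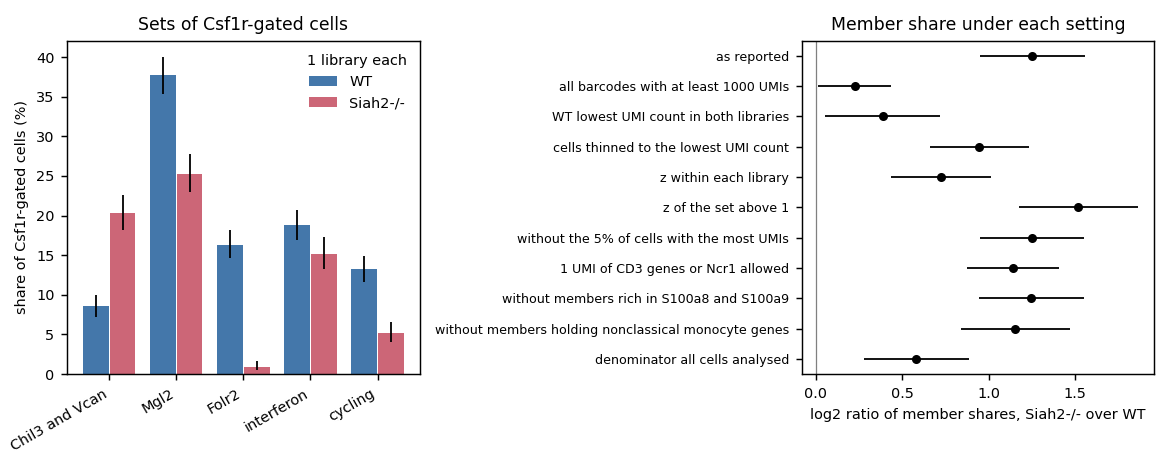
Left, share of Csf1r-gated cells (%) in each of 5 sets, 1 bar per library, with exact 95% binomial intervals. Right, log2 ratio of the members' shares, Siah2-/- over WT, as reported and under 10 alternatives, with 95% intervals. The reported ratio of 1.25 lay near the top of the range, and counting every barcode of at least 1000 UMIs gave 0.22.

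The members differed in how strongly they met the rule, which is a description of the choice and not a result. The z-score of the Hp, Chil3, Ifitm6 and Vcan set ran from -0.25 to 4.69, with a median of 1.47 in the WT members and 2.11 in the Siah2-/- members. Chil3 UMIs were found in 90.1% and 84.7% of members, Hp in 69.0% and 73.7%, Ifitm6 in 69.0% and 92.7%, and Vcan in 25.4% and 31.7%. All 4 genes were found together in 24 WT and 55 Siah2-/- members, and a single one in 24 and 13. The members nearest to the boundary led their next set by 0.0124, 0.0199 and 0.0223, and the nearest cells outside had differences of -0.00234, -0.0127 and -0.0141. Within 0.1 of it lay 20 members and 29 cells outside. The second-ranked set was the interferon set in 41 of 142 WT members (28.9%) and 59 of 262 Siah2-/- members (22.5%), and the Mgl2 set in 24.6% and 14.1%.

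The genes used by the rule lay at different places of the genome (GRCm38). Chil3 (ENSMUSG00000040809) is on chromosome 3 from 106147554 to 106167564, Ifitm6 (ENSMUSG00000059108) on chromosome 7 from 141015699 to 141017924, Hp (ENSMUSG00000031722) on chromosome 8 from 109575128 to 109579172 and Vcan (ENSMUSG00000021614) on chromosome 13 from 89655312 to 89742509, all on the minus strand. Chil3 was by far the most abundant, at 3201 CPM in the WT members and 4084 CPM in the Siah2-/- members, against 81.5 and 145 CPM in the other gated cells. Empty droplets of 10 to 100 UMIs, which measure free RNA, held Chil3 at 202 and 242 CPM, so the level of the other gated cells was below that of free RNA. Reads of Chil3 and its near-identical neighbour Chil4 may not have been told apart.

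The members were also described by classical monocyte genes outside the rule. Values of members against the other gated cells are given as a description, because the same cells were used to choose them. Of 8680 genes compared, 1.76% were at least 2-fold higher and 4.03% at least 2-fold lower in the members of both libraries, with counting intervals that left out no difference. Of the 27 classical monocyte genes, 20 were higher by this measure and 0 lower. Ly6c2, which encodes the Ly6C antigen, stood at 3371 CPM in the WT and 3008 CPM in the Siah2-/- members, against 744 and 969 CPM in the other gated cells. Plac8, a lysosomal gene abundant in monocytes, stood at 6277 and 7766 CPM against 961 and 1945 CPM. Summed over the members, most classical monocyte genes were thus higher than in the other gated cells. This describes cells picked by Chil3, Hp, Ifitm6 and Vcan and does not test their label. Some members held less Ly6c2, as given below.

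Cd177, a surface glycoprotein known from neutrophils, stood at 116 and 105 CPM against 2.46 and 3.43 CPM in the other gated cells. It was found in 45.1% and 32.4% of members. Dmkn, which encodes dermokine, stood at 72.7 and 83.2 CPM against 3.26 and 2.67 CPM. Thbs1 (thrombospondin 1), Slpi (a protease inhibitor of secretions), the glutathione enzymes Mgst1 and Gsr, and Smpdl3a were also among the 15 genes that led in both libraries, as were Nr4a1, Adgre5, Rasgrp2 and Tppp3. Mgst1 stood at 250 and 421 CPM against 36.5 and 83.1 CPM, and Gsr at 149 and 309 CPM against 26.6 and 71.7 CPM. Lyz1 was in the same group (71.9 and 71.2 CPM against 18.1 and 10.8 CPM), although it can share reads with Lyz2.

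The lowest genes were Mmp12 and Mmp13, which encode macrophage elastase and collagenase 3, the platelet chemokine gene Pf4, and genes of dividing cells. Mmp12 had 0.80 and 2.74 CPM in the members against 11.5 and 150 CPM in the other gated cells. Pf4 had 23.2 and 17.5 CPM against 515 and 306 CPM. Of 31 DNA replication and mitosis genes outside the rule, 22 were lower in the members of both libraries and 0 higher. Top2a, the topoisomerase of replicating DNA, gave 4 UMIs in the members of each library.

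**Figure D2:**
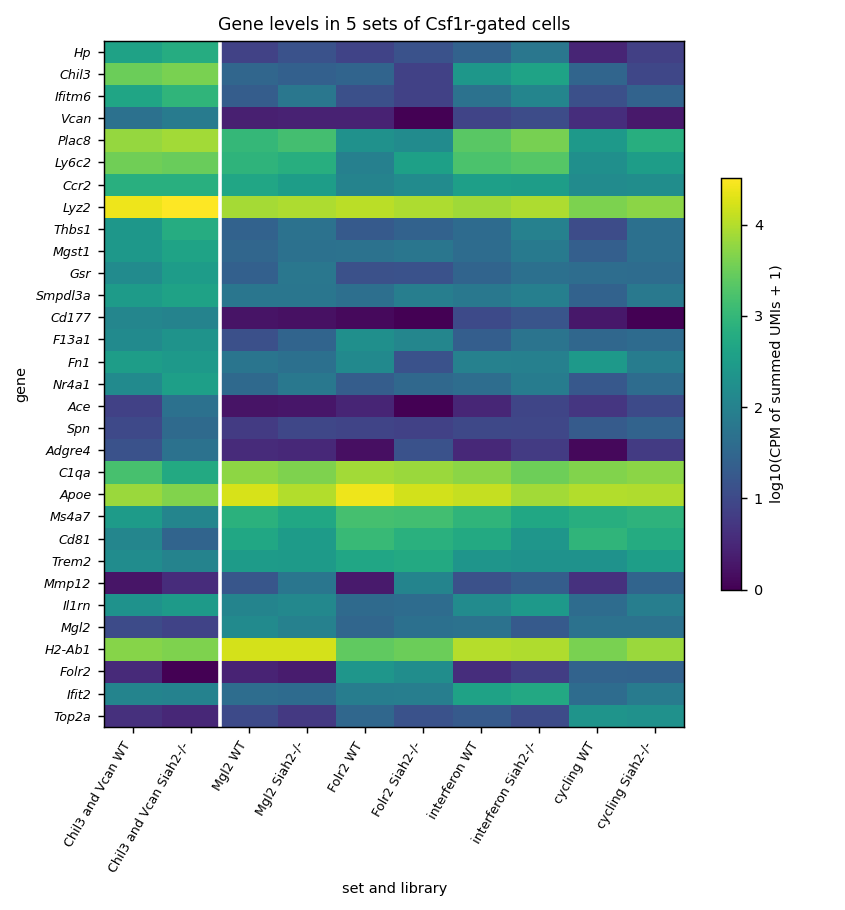
Level of 31 genes (rows) in 5 sets of Csf1r-gated cells in each library (columns), as log10 of the CPM of summed UMIs plus 1. The Chil3 and Vcan cells, left of the white line, were brightest for Plac8, Ly6c2 and Cd177 and dark for Mmp12 and Top2a, and Ace and Adgre4 were brighter in their Siah2-/- column.

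Between the genotypes, 5092 genes had at least 50 UMIs over the members of both libraries, and their median log2 ratio (Siah2-/- over WT) was -0.06. Of these, 157 (3.08%) were at least 2-fold higher and 87 (1.71%) at least 2-fold lower in the Siah2-/- members, with an interval that left out 0. Whatever the size of the ratio, intervals lay above 0 for 626 genes and below 0 for 781. Of the 157 higher genes, 142 also had a higher value in the other gated cells of the Siah2-/- library and 79 were at least 2-fold higher there. Of the 87 lower genes, 77 also had a lower value in the other gated cells and 25 were at least 2-fold lower. In those other cells 3.17% of 10580 genes were higher and 8.81% lower by the same measure. Members and other cells of a library share its pool, lane and free RNA. The other gated cells are summed over sets whose shares differed between the libraries, as given above. The part of this make-up in any ratio of the other gated cells was not tested.

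Most classical monocyte genes differed by less than 2-fold. Of the 27 genes, 4 were at least 2-fold higher in the Siah2-/- members and 0 lower, with a median log2 ratio of 0.39 in the members and 0.70 in the other gated cells. Intervals lay above 0 for 20 of them and below 0 for 2. The count depended on the setting, with 1 higher gene (median 0.13) when every barcode of at least 1000 UMIs entered and 7 (median 0.64) with z-scores within each library. Ly6c2 (chromosome 15, 75108158 to 75111970) was close in both, with a log2 ratio of -0.16 (-0.22 to -0.11), although its reads can be shared with Ly6c1. Ccr2, the receptor that brings monocytes out of the marrow, stood at 705 and 709 CPM, a log2 ratio of 0.01. Lyz2 (lysozyme) stood at 24525 and 32561 CPM (0.41), F13a1 (coagulation factor XIII) at 143 and 206 CPM (0.53) and Fn1 (fibronectin) at 327 and 269 CPM (-0.28).

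The 4 higher genes were Thbs1, Gsr, Clec4e and Klf4, a factor given with the transcription factors. Thbs1 stood at 241 CPM in the WT and 619 CPM in the Siah2-/- members, a log2 ratio of 1.36 (1.18 to 1.55), and it differed by 2.13 in the other gated cells. Slpi stood at 195 and 600 CPM (1.62, 1.42 to 1.83) and Clec4e, a receptor for fungal and mycobacterial glycolipids, at 169 and 348 CPM (1.04). Gsr stood at 149 and 309 CPM (1.06). Of the rule's own genes, Ifitm6 stood at 444 and 891 CPM (1.00, 0.86 to 1.15), Hp at 394 and 609 CPM (0.63, 0.47 to 0.79), Vcan at 47.9 and 75.0 CPM (0.65, 0.20 to 1.11) and Chil3 differed by 0.35. These 4 values describe cells picked for these genes.

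Nonclassical monocyte genes had the highest median ratio of the 20 gene lists as reported, but the neutrophil list had a higher one under 5 alternatives. These were at least 200 UMIs (2.69 against 0.55), the WT minimum in both libraries (1.14 against 0.39), z-scores above 1 (0.84 against 0.71), 1 UMI of the CD3 genes or Ncr1 allowed (1.1004 against 1.08) and the removal of cells with nonclassical genes. Of 14 with enough UMIs, 8 were at least 2-fold higher in the Siah2-/- members and 0 lower, with a median log2 ratio of 1.17 in the members and 0.09 in the other gated cells. Ace, the angiotensin-converting enzyme, stood at 6.39 CPM in the WT and 47.1 CPM in the Siah2-/- members, a log2 ratio of 2.88 (1.84 to 4.14). Eno3, the muscle form of enolase, stood at 5.59 and 28.5 CPM (2.35), and Pglyrp1, a peptidoglycan recognition protein, at 17.6 and 73.9 CPM (2.07). Spn, the sialoglycoprotein CD43, stood at 8.79 and 35.6 CPM (2.02, 1.08 to 3.09). All 4 were low genes whose WT values rested on few molecules.

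Adgre4, an adhesion receptor of the EGF-TM7 family, stood at 12.8 and 48.7 CPM (1.93, 1.15 to 2.80). Ear2, an eosinophil-associated ribonuclease also made by nonclassical monocytes, stood at 29.6 and 87.0 CPM (1.56, 1.03 to 2.12). Nr4a1, the nuclear receptor required by nonclassical monocytes and also an immediate early gene, stood at 142 and 349 CPM (1.30, 1.05 to 1.54). Itgal, the integrin chain of LFA-1, stood at 55.1 and 113 CPM (1.04). Treml4, a receptor that binds dead cells, differed by less (24.0 and 33.9 CPM, 0.50, -0.15 to 1.18), and Cx3cr1, the fractalkine receptor, was the one gene of the list with an interval below 0 (79.9 and 60.2 CPM, -0.41). In the other gated cells Cx3cr1 differed by -1.39 and Nr4a1 by 1.18. For Eno3, Ear2, Ace, Spn and Pglyrp1, the ratio between libraries was larger in the members than in the other gated cells by 2.83, 2.53, 2.17, 2.05 and 1.99 on the log2 scale.

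The upstream sequences of 4 of these genes, of which 3 were at least 2-fold higher (Spn, Ear2 and Adgre4) and 1 was not (Treml4), are shown so that both kinds can be read side by side. Each is the 250 bases before the RefSeq start on GRCm38.p6, written 5′ to 3′ on the gene's strand. The windows are chr7:127137824-127138073 (minus) for Spn, chr14:44102404-44102653 (plus) for Ear2, chr17:55749734-55749983 (plus) for Adgre4 and chr17:48264045-48264294 (plus) for Treml4. Each lies next to the annotated span of its own gene and outside it. Overlap with exons of other genes was not checked. Capitals mark matches, on either strand, to GAGGAA (PU.1-type), TTGCNNAA (C/EBP-type) or CCACCC (KLF-type).
Spn: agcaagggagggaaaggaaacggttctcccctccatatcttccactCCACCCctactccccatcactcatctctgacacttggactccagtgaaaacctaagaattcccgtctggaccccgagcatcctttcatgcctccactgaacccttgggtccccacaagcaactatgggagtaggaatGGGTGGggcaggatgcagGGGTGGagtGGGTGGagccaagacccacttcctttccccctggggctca
Ear2: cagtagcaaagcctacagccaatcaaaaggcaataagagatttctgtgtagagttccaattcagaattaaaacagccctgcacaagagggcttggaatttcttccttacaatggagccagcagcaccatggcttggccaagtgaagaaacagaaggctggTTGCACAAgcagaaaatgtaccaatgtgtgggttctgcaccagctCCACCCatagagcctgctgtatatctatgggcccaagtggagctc
Adgre4: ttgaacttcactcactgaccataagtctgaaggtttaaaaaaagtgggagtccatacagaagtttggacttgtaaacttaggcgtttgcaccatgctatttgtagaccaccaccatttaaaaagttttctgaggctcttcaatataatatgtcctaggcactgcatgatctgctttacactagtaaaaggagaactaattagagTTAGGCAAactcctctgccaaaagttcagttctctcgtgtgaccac
Treml4: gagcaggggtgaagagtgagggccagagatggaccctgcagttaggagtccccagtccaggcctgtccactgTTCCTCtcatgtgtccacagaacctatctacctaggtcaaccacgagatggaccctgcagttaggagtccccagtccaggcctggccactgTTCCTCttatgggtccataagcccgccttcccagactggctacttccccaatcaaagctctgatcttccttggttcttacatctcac
The Spn window held 4 KLF-type matches, the Ear2 window 1 C/EBP-type and 1 KLF-type match, the Adgre4 window 1 C/EBP-type match and the Treml4 window 2 PU.1-type matches. Of 32851 windows of the same length, 28.1% held a KLF-type, 23.3% a PU.1-type and 9.56% a C/EBP-type match, so such letters are common. A match is no evidence of binding.

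Few members held UMIs of several nonclassical genes. Counting, after the values above had been seen, the cells with UMIs of at least 3 of Ace, Treml4, Eno3, Pglyrp1, Spn, Adgre4 and Ear2 gave 6 of 142 WT members (4.23%, 1.57 to 8.97%) and 33 of 262 Siah2-/- members (12.6%, 8.83 to 17.2%). With every cell thinned to 4951 UMIs the shares were 2.82% and 10.7%. In the other gated cells they were 1.58% and 0.973%. Cells with at least 5 of the 7 genes numbered 0 in the WT and 19 in the Siah2-/- members.

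These 33 Siah2-/- cells are described against the other 229 Siah2-/- members by genes outside the 7 and outside the rule. Ly6c2 stood at 1079 CPM against 3258 CPM and C1qa at 71.6 against 616 CPM. Klf2, a factor of quiescent and circulating leukocytes, stood at 1256 against 428 CPM, Nr4a1 at 845 against 285 CPM, Itgal at 392 against 77.3 CPM, Pou2f2 at 334 against 118 CPM and Cd36, the scavenger receptor, at 57.3 against 3.09 CPM. Low Ly6c2 with high Nr4a1, Itgal and Pou2f2 is the textbook profile of nonclassical monocytes. The 6 WT cells also had less Ly6c2 (1606 against 3454 CPM) and more Klf2 (803 against 67.7 CPM) than the other WT members. Nr4a1 (393 against 130 CPM), Itgal (143 against 51.0 CPM) and Pou2f2 (339 against 79.5 CPM) were higher in them too. Their C1qa was not lower (1909 CPM, 1565 to 2307, against 1534 CPM, 1465 to 1606). They held no Cd36 UMI, which in 6 cells allows up to 65.8 CPM. Leaving out all these cells gave 2 of 9 nonclassical genes at least 2-fold higher and a median of 0.14, a fall that the choice of the cells by these genes fixes in part, and a log2 ratio of 2.32 for Ace (0.80 to 4.29). With the WT minimum of UMIs applied to both libraries, the count was 2 of 11 (median 0.39), and with every barcode of at least 1000 UMIs it was 7 of 15 (median 0.97).

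**Figure D3:**
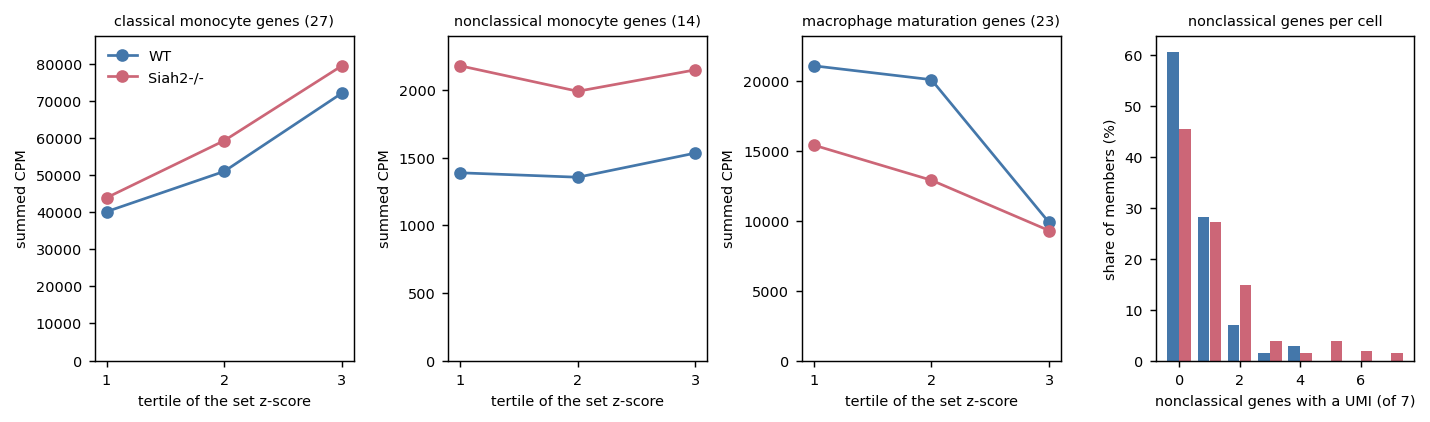
First 3 panels, summed CPM of the tested genes of 3 lists (number in brackets) in tertiles of the members' z-score, cut over both libraries together, 1 line per library. Last panel, share of members (%) by the number of 7 nonclassical genes with a UMI, where counts of 5 or more occurred only in the Siah2-/- library among the members.

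As a description of the choice, the members were also split by the z-score that chose them. Splitting the 404 cells into tertiles of the z-score put 66, 48 and 28 WT members and 69, 86 and 107 Siah2-/- members into the lowest, middle and highest. The summed level of 23 macrophage maturation genes was 21103, 20110 and 9888 CPM from lowest to highest in the WT members and 15425, 12913 and 9306 CPM in the Siah2-/- members. The summed level of the classical monocyte genes ran the other way, from 40145 to 72100 CPM and from 43896 to 79477 CPM, and MHC class II genes outside the rule ran from 33583 to 9734 CPM and from 35394 to 10708 CPM. Since the rule used this z-score, and Mgl2 and MHC class II genes formed a competing set, nothing is read from these orders.

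Of 23 macrophage maturation genes tested, 6 were at least 2-fold lower in the Siah2-/- members, 17 lay within 2-fold or had an interval that held 0, and 0 were higher, with a median log2 ratio of -0.57 in the members and -0.38 in the other gated cells. C1qa, C1qb and C1qc encode the chains of complement C1q. C1qa stood at 1551 and 554 CPM (-1.49, -1.60 to -1.37), C1qb at 2163 and 813 CPM (-1.41) and C1qc at 1126 and 463 CPM (-1.28). Ms4a7, a surface protein of mature macrophages, stood at 301 and 110 CPM (-1.45), and Cd81, a tetraspanin, at 119 and 27.4 CPM (-2.12, -2.61 to -1.65). The sixth gene was the integrin gene Itgb5 (-1.05).

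The values of C1qa by tertile of the z-score that chose the members are given as a description only. From the lowest to the highest tertile its log2 ratio was -1.05, -1.40 and 0.68. In the highest tertile it stood at 121 CPM in the WT and 195 CPM in the Siah2-/- members. Free RNA held C1qa at 1514 and 1307 CPM, near the level of the WT members as a whole and above that of the highest tertile. When every barcode of at least 1000 UMIs was counted, 2 macrophage maturation genes were at least 2-fold lower (median -0.12), and 3 were when both libraries were held to the WT minimum. The part of the unequal depth and unequal z-scores in the differences of C1qa and the other macrophage maturation genes was not tested beyond these values.

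Among the other genes with the lowest ratios, Axl, a receptor tyrosine kinase for apoptotic cells, stood at 161 CPM in the WT and 39.4 CPM in the Siah2-/- members (-2.03, -2.44 to -1.64), against -0.64 in the other gated cells. As a description only, the log2 ratio of Axl in the tertiles of the z-score that chose the members was -1.64, -2.15 and -1.33. Slamf9, a SLAM family receptor, stood at 122 and 36.1 CPM (-1.76), Cd72 at 177 and 65.1 CPM (-1.45) and Tmem119, a gene known from microglia, at 63.1 and 17.5 CPM (-1.85). Scd2 and Apoc1, genes of lipid handling, stood at 35.2 and 8.76 CPM and at 40.8 and 13.1 CPM. Dhrs3, a retinal reductase, stood at 54.3 and 14.2 CPM (-1.93) and Srm, spermidine synthase, at 31.2 and 8.76 CPM (-1.83). Ccnd2 (cyclin D2) stood at 190 and 65.7 CPM (-1.53), found in 58.5% and 18.3% of members.

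Nos2 had the highest ratio among genes whose UMIs were not held mainly by 1 cell. It encodes the inducible nitric oxide synthase and gave 2 UMIs in the WT members (1.60 CPM) and 55 in the Siah2-/- members (30.1 CPM), a log2 ratio of 4.24 (2.31 to 7.32). UMIs were found in 1.41% and 9.16% of members. The other gated cells differed in the same way, from 4.01 to 48.1 CPM (3.59), and the interval of the difference between the ratios held 0 (0.65, -1.33 to 3.76).

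For Klf2, by contrast, the interval of that difference lay above 0. Klf2 stood at 101 CPM in the WT and 523 CPM in the Siah2-/- members (2.38, 2.11 to 2.66), and at 51.5 and 82.8 CPM in the other gated cells (0.68). The ratio was larger in the members by 1.69 (1.39 to 2.003). Klf2 was found in 25.4% and 58.8% of members, and after thinning to 4951 UMIs in 16.2% and 54.6%. As a description only, its log2 ratio was 1.99, 2.84 and 1.92 from the lowest to the highest tertile of the z-score that chose the members. Ifitm1, an interferon-induced membrane protein, stood at 169 and 1061 CPM (2.65, 2.44 to 2.86), and at 417 and 2012 CPM in the other gated cells (2.27). Ifitm1 in free RNA was also unequal, 490 and 1515 CPM.

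Among the remaining genes with the highest ratios, Hspa1a, a heat shock protein gene with the near-identical copy Hspa1b, stood at 14.4 and 142 CPM (3.30), Dusp5, a phosphatase of ERK, at 5.59 and 47.6 CPM (3.09) and Plk2, a stress-related kinase, at 4.79 and 33.9 CPM (2.82). Mir142hg, the host transcript of a leukocyte microRNA, Cnot11, a subunit of the deadenylase complex, and Tpm3-rs7, a tropomyosin-related sequence that can share reads with Tpm3, had log2 ratios of 2.48, 2.21 and 2.23. Thy1 (4 and 47 UMIs) and Gimap4 (6.39 and 30.7 CPM) are lymphocyte genes. Free RNA held Thy1 at 306 and 413 CPM and Gimap4 at 387 and 458 CPM, far above the members.

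**Figure D4:**
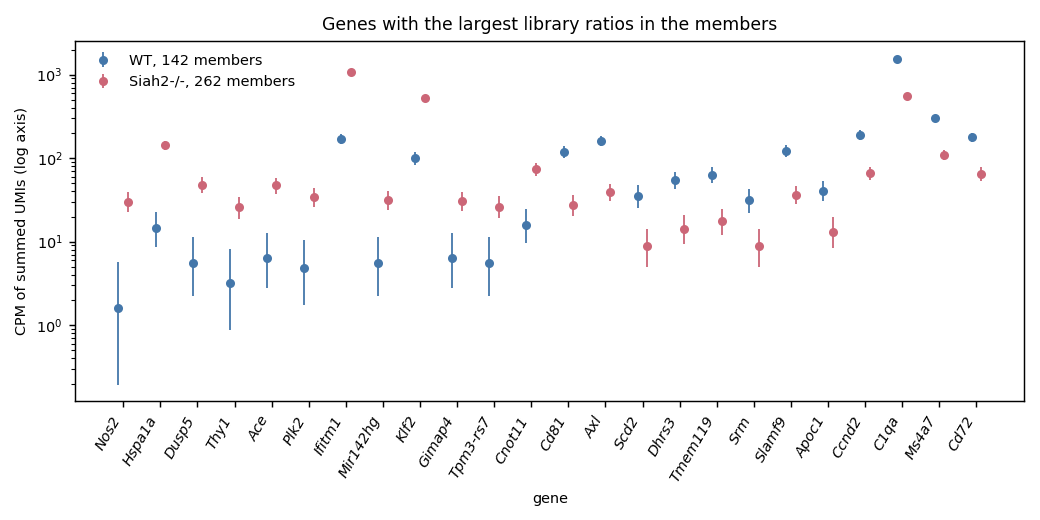
CPM of summed UMIs (log axis) in the members of each library for the 12 genes with the highest and the 12 with the lowest log2 ratios by the naming rule, with exact 95% Poisson intervals. Points are libraries, not replicates, and C1qa and Ifitm1 were the most abundant of the 24 in the WT and the Siah2-/- members.

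Of 20 monocyte transcription factor genes, 6 were at least 2-fold higher in the Siah2-/- members and 0 lower, with a median log2 ratio of 0.28 (0.33 in the other gated cells). When every barcode of at least 1000 UMIs entered, 3 were higher (median 0.14). Besides Klf2 and Nr4a1 these were Klf4, a factor of monocyte differentiation, at 47.1 and 124 CPM (1.40), Cebpb, which nonclassical monocytes depend on, at 166 and 445 CPM (1.42), Atf3, a stress-induced repressor, at 275 and 593 CPM (1.11), and Id2 (1.30). Spi1, which encodes PU.1, was close at 885 and 934 CPM (0.08), and Irf8 differed by -0.13. PU.1 is required by all myeloid cells, and Irf8 by the progenitors of classical monocytes.

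Of 21 immediate early and heat shock genes, 4 were at least 2-fold higher and 0 lower, and 18 had intervals above 0, with a median of 0.67 (0.58 in the other gated cells). The alternatives gave 2 (every barcode of at least 1000 UMIs) to 8 higher (z-scores within each library, with 1 lower). Fos stood at 2215 and 3973 CPM (0.84), Dusp1 differed by 0.96 and Junb by 0.68. The 4 higher genes were Atf3, Klf2, Nr4a1 and Hspa1a. Immediate early genes respond within minutes to signals and stress.

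Of 22 chemokine and cytokine genes, 5 were at least 2-fold higher and 1 lower, with a median of 0.35 (0.28 in the other gated cells). With cells thinned to the lowest UMI count it was 2 higher and 3 lower, and as the mean over cells of CPM 2 higher and 1 lower. Il1b, the inflammatory cytokine interleukin 1 beta, stood at 1424 and 3084 CPM (1.12), Cxcl2, a neutrophil chemokine, differed by 1.11, and Ccl4, which attracts T cells and monocytes, stood at 360 and 742 CPM (1.04). For the other 2, Ccl8 and Ccl24, a single Siah2-/- cell held 88.7% and 71.0% of the UMIs. Cxcl16, the ligand of Cxcr6, was the lower one at 539 and 238 CPM (-1.18, -1.35 to -1.001), and it differed by 0.11 in the other gated cells. Cxcl9, which attracts T cells through Cxcr3, also went opposite ways, from 567 to 354 CPM in the members (-0.68) against 0.50 in the other gated cells, while Cxcl10, a ligand of the same receptor, stood at 884 and 1456 CPM (0.72).

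Of 18 immune suppression genes, 5 were at least 2-fold higher and 0 lower, with a median of 0.38 (0.92 in the other gated cells). They were Nos2, Cd274, the gene of the checkpoint ligand PD-L1, at 48.7 and 99.6 CPM (1.03), Ptgs2, which makes prostaglandins (1.27), the decoy receptor gene Il1r2 (1.15) and Clec4e. Over the 13 alternatives for gene counts, 2 to 6 were higher, with the lowest count both for z-scores above 1 and for every barcode of at least 1000 UMIs.

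Of 19 matrix and protease genes 5 were at least 2-fold higher and 1 lower, with a median of 0.32 (0.48 in the other gated cells). With every barcode of at least 1000 UMIs it was 1 higher and 1 lower, and with thinned cells 2 and 1. Besides Thbs1 they were the protease genes Mmp8 (24.8 and 57.5 CPM, 1.21) and Mmp19 (23.2 and 53.6 CPM, 1.21), the inhibitor genes Timp1 (24.0 and 49.3 CPM, 1.04) and Serpinb2 (2.69), of which 1 Siah2-/- cell held 59.6% of the UMIs. The lower one was the matrix gene Sparc. Of 17 NADPH oxidase and antimicrobial genes 4 were higher and 0 lower (median 0.10), namely Nos2, Slpi, S100a8 and S100a9. Adding every barcode of at least 1000 UMIs gave 1 higher, and thinned cells gave 3 higher and 1 lower. Of 18 trafficking and adhesion genes 2 were higher and 0 lower (0.21), the integrin genes Itgal and Itga4, the latter at 52.7 and 115 CPM (1.12). That count was 0 with the WT minimum of UMIs, with z-scores above 1 (where 1 was lower) and without the cells with nonclassical genes.

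Interferon and antigen presentation genes differed little in these cells. Of 30 interferon gamma response genes, 3 were at least 2-fold higher and 0 lower (median 0.12, against 0.44 in the other gated cells). They were Irf1, a factor of the interferon response (171 and 346 CPM, 1.02), Cd274 and Nos2. Only 1 of the 30 was higher under each of 5 alternatives (every barcode of at least 1000 UMIs, the WT minimum, thinned cells, z-scores above 1 and the mean over cells of CPM). Of 27 type I interferon response genes 0 passed in either direction (0.05 against 0.28), and at most 1 was lower under the alternatives. Of 9 MHC class II genes outside the rule and of 17 MHC class I genes 0 passed, with medians of -0.11 and 0.01 (0.29 and 0.35 in the other gated cells). The summed MHC class I level was 21893 CPM in the WT and 22581 CPM in the Siah2-/- members.

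After the nonclassical genes, glycolysis genes were the list whose medians lay furthest apart in the members and the other gated cells. The make-up of those other cells differed between the libraries, and its part in this gap was not tested. Of 25 genes, 0 passed 2-fold in the members and their median log2 ratio was 0.00, whereas it was 0.93 in the other gated cells. Under the alternatives 0 to 2 were higher in the members. Aldoa, the aldolase of glycolysis, differed by -0.08 in the members and 0.94 in the other cells, and Slc2a1, the glucose transporter Glut1, by -0.12 and 1.18. Ldha, lactate dehydrogenase, differed by -0.26 and 0.43, and Gapdh by 0.02 and 0.63. Pgk1 was higher in both (0.82 and 1.61). Oxidative phosphorylation genes had medians of -0.16 and -0.11, with 0 of 22 past 2-fold. Of 6 Siah2 and hypoxia sensor genes 0 passed (0.04).

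Cell cycle genes were scarce in the members. Of 6 DNA replication and mitosis genes with enough UMIs, 0 were higher and 1 lower (median 0.13), the nucleotide enzyme gene Dut at 24.8 and 10.9 CPM. Under the alternatives 0 to 2 were lower, with medians from -0.42 to 0.31. Of 10 cyclin D and cell cycle inhibitor genes, 3 were lower and 0 higher (median 0.27), and the 3 were Ccnd1 at 117 and 54.7 CPM (-1.10), Ccnd2 and Cdk6 (-1.22). With the WT minimum of UMIs in both libraries, or with every barcode of at least 1000 UMIs, 0 of them passed.

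**Figure D5:**
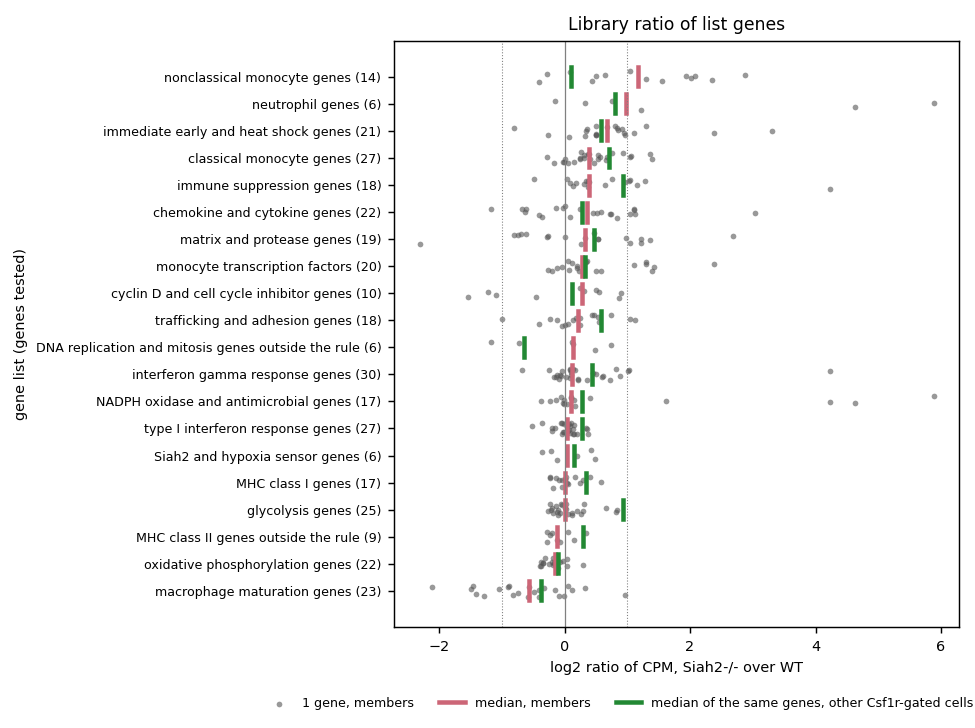
Log2 ratio of CPM (Siah2-/- over WT) of each tested gene in 20 gene lists, 1 grey point per gene, with the median in the members (red) and in the other gated cells (green). The lists are ordered by the members' median, dotted lines mark 2-fold, and the 2 medians lie furthest apart for nonclassical monocyte genes and for glycolysis genes.

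Markers of other cell types were low, with the exceptions given here. The CD3 genes were 0 by the rule, and so were Ncr1 of the NK cell and Flt3 and Cd209a of the dendritic cell markers. The gap between members and free RNA is thus fixed in part for the T and NK cell markers. The summed T cell markers reached 24.8 CPM in the WT and 48.2 CPM in the Siah2-/- members, against 2091 and 2359 CPM in free RNA. NK cell markers reached 29.6 and 126 CPM (free RNA 1560 and 2207 CPM), of which Gzma, the gene of granzyme A, made up 9.59 and 79.4 CPM. B cell markers reached 14.4 and 33.9 CPM, conventional dendritic cell markers 20.0 and 33.4 CPM, endothelial markers 8.79 and 16.4 CPM, mast cell and basophil markers 7.19 and 4.38 CPM, and erythroid markers 5.59 and 4.93 CPM. The median member held none of the T, NK, B or conventional dendritic cell markers in either library, while the highest Siah2-/- member stood at 11510 CPM of NK cell, 5455 CPM of B cell and 2048 CPM of conventional dendritic cell markers within its own UMIs, against 292, 217 and 595 CPM in the highest WT member. Plasmacytoid dendritic cell markers reached 884 and 633 CPM, most of it Bst2, which other cells also make. Of the melanoma markers, Pmel, Mlana, Tyr and Sox10 were at 0 in the members. Fibroblast-like markers were the one cell type list with genes at least 2-fold lower in the Siah2-/- members, at 241 and 26.3 CPM in sum, with 3 of 3 tested genes passing, but 1 WT cell held 57.1% of the Col3a1 UMIs and the median member held none in either library.

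Neutrophil markers summed to 83.9 CPM in the WT and 519 CPM in the Siah2-/- members, against 259 and 684 CPM in free RNA, and 3 of 4 tested genes were at least 2-fold higher. In a longer list of neutrophil genes it was 3 of 6, the same 3, with a median log2 ratio of 0.99 (0.80 in the other gated cells). With every barcode of at least 1000 UMIs it was 0 of 7 (median 0.37). The third was Mmp8. The calprotectin genes S100a8 and S100a9 made up most of the sum, with 5 and 8 UMIs in the WT and 431 and 289 UMIs in the Siah2-/- members. A single Siah2-/- cell held 491 of these UMIs and another 160, and the third highest held 12. Without both cells the Siah2-/- members had 35.3 CPM of S100a8 and 2.76 CPM of S100a9, against 3.99 and 6.39 CPM in the WT members. Ly6g, Ltf, Camp, Ngp, Elane and Mpo, which define neutrophils and their precursors, were at 0 in the members of both libraries.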

How the data were processed

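Live CD45+ cells from YUMMER1.7 tumours were profiled by 10x 3' version 2 libraries, 1 per genotype. Per the labels, the authors used bcl2fastq and Cell Ranger with mm10 (GRCm38), whose versions are not given in the sources used here. The deposited matrices hold raw UMI counts per gene and barcode, and the deposited normalized table holds natural log values, ln(1 + UMIs scaled to 10000 per cell), for the 10075 cells that the authors kept after filters on genes per cell and a 10% mitochondrial limit. The normalized values chose the members. Counts came from the matrices, because the deposited raw count table differed from them in 3777 of 147639050 values. No column of another sample was found.

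UMIs were summed over the members of each library and given as CPM of the summed UMIs. Ratios have 95% conditional binomial intervals, levels exact Poisson and shares exact binomial (Clopper-Pearson) intervals. A gene entered a comparison with at least 50 UMIs, and was counted as higher or lower past a log2 ratio of 1 in size with an interval that left out 0. Named genes were the 12 highest and 12 lowest ratios with no cell holding over 20% of UMIs, the 15 highest and 8 lowest against the other gated cells, and genes of the lists. Members, lists and rules were chosen with earlier results of these data known. No doublet caller was run. The gate removes barcodes with T or NK cell genes, and an alternative left out the 5% of cells with the most UMIs. That alternative removed no member (142 WT and 262 Siah2-/- members remained), so it says nothing about doublets among them. Alternatives changed the cells, the minimum UMIs, the z-score and the gate. The procedure was tested on simulated data. Python 3.11.15, numpy 2.4.6, scipy 1.17.1, pandas 2.3.3 and matplotlib 3.10.9 were used. Promoter windows are from RefSeq on GRCm38.p6. Some genes, and 1 set of gated cells, are not reported here.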

Additional observations from a re-analysis of the deposited data

Results flagged for a closer look

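For 12 listed genes the Siah2-/- over WT ratio pointed one way in the members and the other way in the other gated cells. With 1 library per genotype the difference was not tested, nor was the part of the unequal make-up of the other gated cells in it. The difference is given as the log2 ratio in the members minus that in the other gated cells. It was 3.93 for Ccl8, of which a single Siah2-/- cell held 88.7% of the UMIs. It was 2.83 for Eno3, 2.53 for Ear2 and 1.15 for Pou2f2, which are nonclassical monocyte genes. It was 2.12 for Timp1 (24.0 and 49.3 CPM in the members, 43.4 and 20.5 CPM in the other gated cells), 1.11 for Wfdc17 (741 and 1445 CPM, against 428 and 386 CPM) and 1.09 for Hmgb2 (152 and 211 CPM, against 375 and 246 CPM). In the opposite direction it was -1.29 for Cxcl16, -1.18 for Cxcl9, -1.17 for Itgax (47.9 and 24.1 CPM, against 77.9 and 88.1 CPM), -1.08 for Ecm1 (247 and 141 CPM, against 165 and 199 CPM) and -1.003 for Mif (772 and 655 CPM, against 733 and 1247 CPM).

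Barcodes that met the rule were also found among those of at least 1000 UMIs outside the cells analysed. They numbered 331 in the WT and 105 in the Siah2-/- library, with medians of 5278 and 4055 UMIs. Their Chil3 level was 6241 and 3507 CPM, Ly6c2 was 4208 and 2221 CPM and Plac8 was 9426 and 6962 CPM, while Hp was 721 and 909 CPM and Ifitm6 856 and 1170 CPM, so no single direction held for these genes.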

How the results depend on the processing

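No paired analysis was possible because each genotype had 1 library. The log2 ratio of the members' shares (1.25) moved to 0.22 with every barcode of at least 1000 UMIs, 0.39 with the WT minimum in both libraries, 0.94 with thinned cells, 0.72 with z-scores within each library and 0.58 with all cells as denominator. The 157 higher genes became 237 with at least 20 UMIs and 60 with at least 200. The 87 lower genes became 190 with z-scores within each library, 147 with 1 UMI of the CD3 genes and Ncr1 allowed, 200 with at least 20 UMIs and 19 with at least 200. The cause of the moves in the share and under the z-score and gate alternatives was not tested. The UMI minimums change the genes tested, to 7321 and 2012. Of the 36 counts and shares, 25 moved by less than the limits set, and of 264 values of the 24 named genes 227 did, with no sign reversed. With every barcode of at least 1000 UMIs, 80 of 118 higher and 31 of 63 lower genes were among those reported. Alternatives on the CD3 genes, on S100a8 and S100a9 and on nonclassical genes were chosen after seeing the data. Low genes rest on few molecules, and 1 library per genotype gives no spread between animals.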
